A study of Mus musculus with 6 samples.

Results

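ER and cytosolic chaperone genes were described in heart ventricles from 6 mice of the outbred CD1 stock, all 3 months old. The set was given as a list of 36 gene symbols and holds molecular chaperones, their cofactors and the genes that sense misfolded protein. All 36 were found among the 18158 features of the deposited table, and all 36 passed the filter on low values. Of the mice, 3 were dosed with the aminoglycoside antibiotics paromomycin and neomycin at 150 mg/kg given 2 times a day by the intraperitoneal route over 14 days (labelled Paromomycin/Neomycin, here Paro/Neo). The other 3 received PBS over the same 14 days (Vehicle). Each library is the ventricular mRNA of 1 mouse, and the labels name no engineered allele. Per the study's design text, the series profiles hearts in which the drugs are meant to suppress the cardiomyocyte factor Meis1 and its partner.

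Newly made secretory and membrane proteins fold in the endoplasmic reticulum (ER) with the help of BiP (Hspa5), GRP94 (Hsp90b1), lectin chaperones and protein disulfide isomerases. When misfolded protein accumulates there, the sensors IRE1 (Ern1), PERK (Eif2ak3) and ATF6 start the unfolded protein response, which raises the transcripts of these chaperones. In the cytosol the HSP70 and HSP90 systems and small heat shock proteins do the same work under the transcription factor Hsf1. Cardiomyocytes are rich in small heat shock proteins, among them Cryab, Hspb6, Hspb7 and Hspb8, which guard the sarcomere. Aminoglycosides act on ribosomes and can cause misreading of codons, best known in bacteria.

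The transcription factors ATF6 and XBP1 act at ER stress elements, and the letters of these elements were searched in the members' promoters. The search covered 300 bases per start site, 250 before it and 50 after it (RefSeq sequences, build GRCm38.p6), on both strands. A window was held for 28 of the 36 members, and the others were Hyou1, Manf, Atf6, Hspa8, Hsp90aa1, Hsp90ab1, Cryab and Hsf1. The element, CCAAT and CCACG with any 9 bases between them, was present in 8 of the 28, all of them ER members. Over all genes with a window, 37 of 27025 held it, or 0.137%. That difference was not tested, since the ER members were listed for known roles in the ER and the unfolded protein response. Matches to the element are printed in its direction, with the fixed bases in capitals, and lie on the gene's strand unless marked as reverse.
Hspa5: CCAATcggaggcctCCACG
Hsp90b1, distal: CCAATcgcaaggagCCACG
Hsp90b1, proximal, reverse: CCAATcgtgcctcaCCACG
Calr, reverse: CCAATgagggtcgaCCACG
Canx: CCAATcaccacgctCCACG
Pdia6: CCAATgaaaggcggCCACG
Dnajc3: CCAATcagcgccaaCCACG
Creld2, reverse: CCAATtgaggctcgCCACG
Syvn1: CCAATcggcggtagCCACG

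The element of Hspa5 began 65 bases before the start, at chr2:34772025-34772043. Hsp90b1 held a pair that did not overlap, beginning 212 and 107 bases before the start, at chr10:86705638-86705656 and chr10:86705533-86705551. In the other 6 genes the first base lay 44 bases (Syvn1) to 162 bases (Calr) before the start. The 250 bases before the start of the 2 most abundant ER chaperone genes are shown on the gene's strand, with the elements in capitals.
Hsp90b1, chr10:86705445-86705694, minus strand: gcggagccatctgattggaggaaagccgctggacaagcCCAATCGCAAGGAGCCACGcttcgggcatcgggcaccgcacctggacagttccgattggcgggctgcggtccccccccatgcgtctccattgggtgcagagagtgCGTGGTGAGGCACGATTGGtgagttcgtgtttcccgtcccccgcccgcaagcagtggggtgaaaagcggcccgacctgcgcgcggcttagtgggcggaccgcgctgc
Hspa5, chr2:34771840-34772089, plus strand: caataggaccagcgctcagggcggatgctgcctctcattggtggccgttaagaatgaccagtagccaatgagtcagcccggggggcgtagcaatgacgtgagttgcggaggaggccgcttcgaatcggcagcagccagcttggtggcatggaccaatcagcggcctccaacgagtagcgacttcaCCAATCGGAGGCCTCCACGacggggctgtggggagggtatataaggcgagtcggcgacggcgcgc

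A second element of the response, TGACGTGG, was present in 0 of the 28 members, and in 0.714% of all genes. The heat shock element bound by Hsf1 was searched as 3 alternating GAA and TTC blocks with 2 bases between them. Only 9 of the 28 members with a window are cytosolic. The heat shock element was present in 1 of the 28, Hsph1, and in 0.662% of all genes. That match lies just after the start, on the strand opposite to the gene, and is shown because Hsph1 had the lowest log2 change of the set.
Hsph1, reverse, chr5:149636288-149636300: GAActTTCcaGAA

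Depth, inferred from the steps between low values, was no less than 9556387 to 15969980 reads per library. Each member rested on 25 reads or more in every library, the lowest being Ern1 at 25 to 98 reads. One library stood apart: Paro/Neo replicate 1 correlated least with the rest, at a mean Pearson r of 0.9755 across genes where the other 5 had 0.9814 to 0.9853, and its deviations followed transcript GC content (Spearman -0.3492 across genes, against -0.1181 to 0.3016). Cardiomyocyte transcripts were abundant, with 10 marker genes summing to 116200 to 147800 TPM, a share of all transcripts corrected for gene length, and 8 lymphocyte and plasma cell markers summed to no more than 3.683 TPM. In such bulk samples, fewer cells of a type and less RNA per cell cannot be told apart.

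No chaperone gene passed the threshold between Paro/Neo and Vehicle hearts. In the fit over all genes (limma on log2(TPM + 1), two-sided, Benjamini-Hochberg adjusted p under 0.05), 0 of 36 members were higher and 0 lower, where 0.137% of the 12409 tested genes were called (0.121% higher, 0.0161% lower). The lowest adjusted p of a member was 0.393, for the BiP cofactor Dnajb9. By value 21 members were higher and 15 lower (58.3% higher), where 5743 of all tested genes were higher and 6666 lower (46.3% higher). Their median log2 change was 0.05, against -0.02 over all tested genes, and the libraries overlapped. The median of the set relative to the Vehicle mean was 0.03, 0.14 and 0.03 in Paro/Neo replicates 1 to 3, against -0.04, 0.05 and 0.01 in Vehicle replicates 1 to 3. The whole set took 0.817%, 0.963% and 0.885% of all TPM in Paro/Neo hearts, against 0.844%, 0.869% and 0.862% in Vehicle hearts.

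The 95% intervals show which sizes of change were compatible with these 6 libraries. For 35 of 36 members the interval lay within 2-fold in either direction, and for 27 it lay within 1.5-fold, on the log2(TPM + 1) scale. That scale understates changes of low genes, so for Ern1 the 2-fold bound does not hold for TPM itself. Its interval reached 0.96 and its log2 change was 0.50, against 0.75 with log2(TPM + 0.1), and its ratio of means was 1.73. The exception at 2-fold was Hsph1, whose interval ran from -1.22 to -0.0008. The SE of a log2 change ranged from 0.09 for Hspa4 to 0.26 for Hsph1, with a median of 0.13, against 0.14 over all tested genes.

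Without adjustment, 5 members had p under 0.05 in the same limma fit: Dnajb9, Manf, Hsp90b1 and Ern1 were higher, and Hsph1 was lower. That is 13.9% of the members, where 7.61% of all tested genes had such a p (3.24% higher, 4.37% lower). The groups did not overlap for 4 members, the same 4 higher genes, and for 14.3% of all tested genes (6.04% higher, 8.22% lower). All 4 belong to the ER, as do 22 of the 36 members. Of these 22 ER members 13 were higher and 9 lower by value, with a median log2 change of 0.05. Of the 14 cytosolic members 8 were higher and 6 lower by value, with a median log2 change of 0.06. The count of 5 changed with the libraries used, as did the share of all tested genes, given here in brackets. Leaving out Paro/Neo replicate 2 gave 1 (8.48%). Leaving out Vehicle replicates 1, 2 and 3 in turn gave 3 each time (6.16%, 5.67% and 6.06%). Such fits also have fewer mice. Dropping Paro/Neo replicate 3 gave 6 (9.2%). Dropping Paro/Neo replicate 1 gave 5 (7.29%), but these were Hsp90b1, Dnajb9, Manf, Herpud1 and Hspa8, without Ern1 and Hsph1. That library, which stood apart over all genes, held the highest of the 6 values of Dnajb9, Manf, Hsp90b1 and Ern1 and the lowest of Hsph1. Array weights, which gave that library a weight of 0.26, left 6 members at an unadjusted p under 0.05 (9.85%). These were Hsp90b1, Dnajb9, Manf, Pdia6, Herpud1 and Hsp90ab1, without Ern1 and Hsph1. A GC correction also gave 6 (8.32%), namely Dnajb9, Manf, Ern1, Hsp90ab1, Hspb1 and Hspb7, without Hsp90b1 and Hsph1. What made that library differ was not tested. Of the 5 genes, Dnajb9 kept a p under 0.05 in all 15 alternative settings, Manf in 12 of 15, Ern1 in 9 of the 14 that kept it, Hsp90b1 in 7 of 15 and Hsph1 in 5 of 15.

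**Figure D1:**
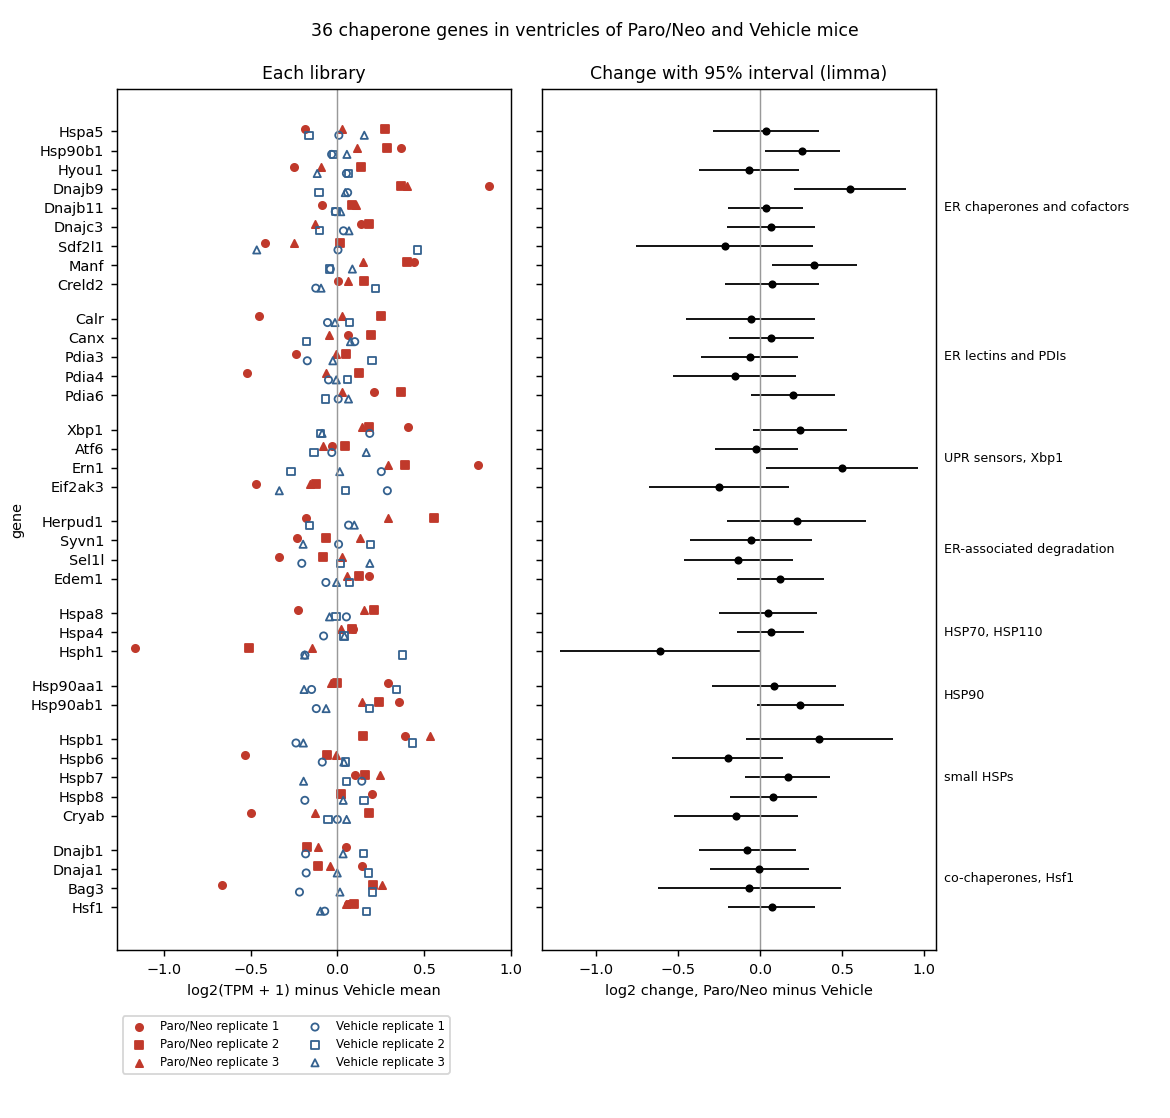
Left, log2(TPM + 1) of each chaperone gene in each library minus the mean of the 3 Vehicle libraries (filled red, Paro/Neo; open blue, Vehicle; circle, square and triangle for replicates 1, 2 and 3). Right, the limma log2 change, Paro/Neo minus Vehicle, with its 95% interval. The interval of Dnajb9 runs from 0.21 to 0.89 and that of Hsph1 from -1.22 to -0.0008. Paro/Neo replicate 1 is the lowest of the 6 libraries for 15 of 36 genes and the highest for 9.

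Among the ER chaperones and their cofactors, 7 of 9 were higher by value and 3 had an unadjusted p under 0.05, all 3 higher. Over all tested genes 46.3% were higher by value, and 3.24% were higher with such a p. Dnajb9 (ERdj4), a DnaJ partner of BiP and a known target of the IRE1 and XBP1 branch, lies on chromosome 12 at 44205559 to 44210326. It was at 123, 86.2 and 88.2 TPM in Paro/Neo hearts, against 69.5, 61.9 and 68.8 TPM in Vehicle hearts. All 3 Paro/Neo hearts stood above all 3 Vehicle hearts, with replicate 1 highest. The log2 change was 0.55 ± 0.15 (SE, n = 3 each; limma adjusted p = 0.393), a 1.49-fold ratio of means. Over the alternative settings its adjusted p ranged from 0.219 to 0.835 and its log2 change from 0.38 to 0.64.

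Manf, a secreted ER protein that binds BiP, was at 47.3, 46.1 and 38.4 TPM in Paro/Neo hearts, against 33.6, 33.5 and 36.8 TPM in Vehicle hearts. The closest pair across the groups was 38.4 against 36.8 TPM, and the log2 change was 0.33 ± 0.11 (limma adjusted p = 0.521). Manf shares up to 146 bases of exon with Dcaf1 and up to 166 with 4930524O07Rik, both on the opposite strand. Hsp90b1, the ER form of HSP90 with its pair of ER stress elements, was at 794, 750.0 and 665 TPM in Paro/Neo hearts, against 601, 606 and 639 TPM in Vehicle hearts. Its groups did not overlap either, with a log2 change of 0.26 ± 0.10 (limma adjusted p = 0.59). The exons of Hsp90b1 overlap those of 1810014B01Rik on the opposite strand by up to 270 bases, and whether the counting used strand is not given in the sources used here.

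Hspa5, whose product BiP is the ER form of HSP70 and the usual readout of ER stress, was at 682, 938 and 791 TPM in Paro/Neo hearts, against 781, 692 and 864 TPM in Vehicle hearts. The groups overlapped throughout, the 2 lowest values being 1 of each group. Its log2 change was 0.04 ± 0.14 (95% interval -0.29 to 0.36, limma adjusted p = 0.954), and its sign turned to -0.08 without Paro/Neo replicate 2 and to -0.04 without Vehicle replicate 2. The ratio of Hsp90b1 to Hspa5 transcripts was 1.16, 0.80 and 0.84 in Paro/Neo hearts, against 0.77, 0.87 and 0.74 in Vehicle hearts, so that replicate 1 alone held more Hsp90b1 than Hspa5.

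For the remaining members of this class the groups overlapped. Dnajb11 (ERdj3), a BiP cofactor, averaged 36.7 ± 2.76 TPM in Paro/Neo and 35.7 ± 0.434 TPM in Vehicle hearts (SD, n = 3 each). Dnajc3 (p58IPK), which acts on unfolded protein and restrains PERK, averaged 42.4 ± 4.83 TPM in Paro/Neo and 40.4 ± 2.55 TPM in Vehicle hearts. Creld2, a disulfide isomerase induced by ER stress, averaged 20.9 ± 1.15 and 19.9 ± 2.85 TPM in Paro/Neo and Vehicle hearts. Hyou1, the nucleotide exchange factor of BiP, averaged 11.7 ± 1.72 TPM in Paro/Neo and 12.3 ± 0.908 TPM in Vehicle hearts. Sdf2l1, part of the BiP complex, was the least abundant at 6.35 ± 1.11 and 7.77 ± 2.77 TPM in Paro/Neo and Vehicle hearts, with 28 to 81 reads per library. Log2 changes of these 5 genes lay between -0.22 and 0.07, with limma adjusted p from 0.827 to 0.942.

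Of the lectin chaperones and disulfide isomerases, 2 of 5 were higher and 3 lower by value, with 0 of 5 at an unadjusted p under 0.05 by limma. Over all tested genes 7.61% had such a p. Canx, the membrane-bound lectin chaperone, was at 356, 391 and 331 TPM in Paro/Neo hearts, against 366, 302 and 360.1 TPM in Vehicle hearts. Its groups overlapped, with a log2 change of 0.07 ± 0.11. Pdia6, which also controls IRE1 signalling, was at 132, 147 and 116 TPM in Paro/Neo hearts, against 114, 108 and 119 TPM in Vehicle hearts. Only the lowest Paro/Neo heart fell below the highest Vehicle heart, and the log2 change was 0.20 ± 0.11 (limma adjusted p = 0.709), or 0.12 without Paro/Neo replicate 2.

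Calr, the soluble lectin chaperone that also stores calcium, averaged 292 ± 69.6 TPM in Paro/Neo and 298 ± 13.4 TPM in Vehicle hearts, and Paro/Neo replicate 1 held the lowest value of all, 217 TPM. Pdia4 was also lowest in that library, at 24.6 TPM against 34.1 to 39.0 TPM in the other 5. Its mean was 32.6 ± 7.33 TPM in Paro/Neo and 35.8 ± 1.39 TPM in Vehicle hearts. Without that library the log2 changes of Calr and Pdia4 were 0.14 and 0.03, in place of -0.06 and -0.15. Pdia3, the isomerase partnered with both lectins, averaged 194 ± 20.0 TPM in Paro/Neo and 203 ± 26.9 TPM in Vehicle hearts.

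Of the 3 sensors of the unfolded protein response and Xbp1, 2 were higher and 2 lower by value. Ern1 (IRE1 alpha), the kinase and RNase that splices Xbp1 mRNA, was at 3.05, 2.03 and 1.83 TPM in Paro/Neo hearts, against 1.75, 0.917 and 1.33 TPM in Vehicle hearts. The groups did not overlap, but the lowest Paro/Neo and the highest Vehicle heart differed by little, and the log2 change was 0.50 ± 0.20 (limma adjusted p = 0.618). Xbp1, the factor activated by that splicing, was at 70.6, 60.2 and 58.5 TPM in Paro/Neo hearts, against 60.4, 49.4 and 49.8 TPM in Vehicle hearts. Vehicle replicate 1 reached the level of the Paro/Neo hearts, and the log2 change was 0.24 ± 0.12 (limma adjusted p = 0.698), or 0.16 without Paro/Neo replicate 1. A table of gene totals does not separate spliced from unspliced Xbp1.

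Atf6, the sensor cleaved in the Golgi, was at 49.3, 51.9 and 47.3 TPM in Paro/Neo hearts, against 49.1, 45.7 and 56.6 TPM in Vehicle hearts, and its log2 change was -0.02 ± 0.11. Eif2ak3 (PERK), the kinase that slows translation, was at 3.79, 5.08 and 4.95 TPM in Paro/Neo hearts, against 7.09, 5.84 and 4.25 TPM in Vehicle hearts. Its Vehicle values spread more widely than its Paro/Neo values, and the log2 change of -0.25 ± 0.19 had a limma adjusted p of 0.77. It was -0.10 without Vehicle replicate 1, -0.42 without Vehicle replicate 3 and -0.14 without Paro/Neo replicate 1.

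Genes of ER-associated degradation, which carries misfolded protein back to the cytosol for the proteasome, split evenly, 2 higher and 2 lower by value. Of them 0 had an unadjusted p under 0.05 by limma, where 7.61% of all tested genes had such a p. Herpud1, a membrane scaffold of the degradation complex and a strong ER stress target, averaged 160.1 ± 40.1 TPM in Paro/Neo and 135 ± 12.9 TPM in Vehicle hearts. Paro/Neo replicate 1, at 118 TPM, lay below every Vehicle heart, while replicates 2 and 3, at 198 and 165 TPM, lay above them. The log2 change was 0.22 ± 0.18 with all libraries (limma adjusted p = 0.78). It rested on single libraries, being 0.43 without Paro/Neo replicate 1 (adjusted p = 0.463), 0.06 without Paro/Neo replicate 2 (adjusted p = 0.929) and 0.14 without Vehicle replicate 2 (adjusted p = 0.94). The lectin Edem1 averaged 5.82 ± 0.306 and 5.27 ± 0.298 TPM in Paro/Neo and Vehicle hearts. The ligase Syvn1 averaged 2.83 ± 0.487 TPM in Paro/Neo and 2.98 ± 0.532 TPM in Vehicle hearts, and its adaptor Sel1l averaged 21.8 ± 2.88 and 24.0 ± 3.37 TPM in the same order.

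The 8 ER members with an ER stress element in the window had log2 changes of -0.06 to 0.26, with a median of 0.07, and 6 of them were higher by value. The 11 ER members with a window and no match ranged more widely, from -0.25 to 0.55, with a median of 0.03 and 6 higher. Dnajb9 and Ern1 were among those without a match. These are descriptions of few genes, and no match says only that those letters are not in this window.

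**Figure D2:**
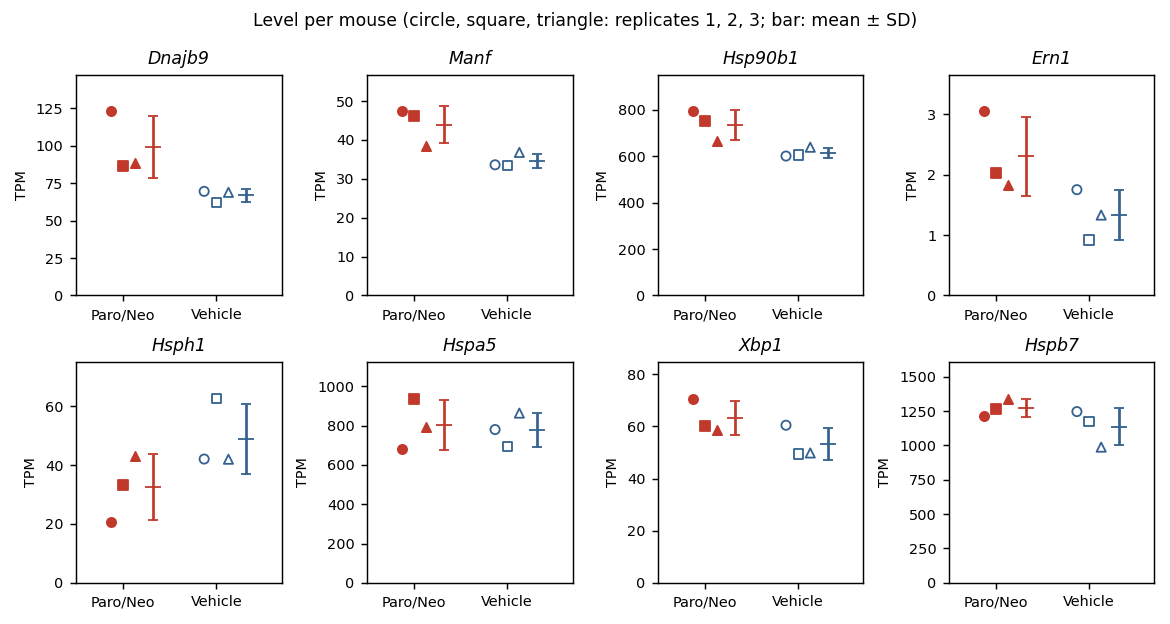
TPM of 8 chaperone genes in each mouse, Paro/Neo left and Vehicle right in each panel (circle, square and triangle for replicates 1, 2 and 3), with mean ± SD beside the points. Dnajb9, Manf, Hsp90b1 and Ern1 have groups that do not overlap, while Hsph1, Hspa5, Xbp1 and Hspb7 have groups that do.

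Cytosolic chaperones were 14 of the 36 members, 8 higher and 6 lower by value, with a median log2 change of 0.06. Only Hsph1 had an unadjusted p under 0.05 by limma, or 7.14% of the 14, where 7.61% of all tested genes had such a p. The groups overlapped for 14 of 14, while they did not for 14.3% of all tested genes. Hsph1 (HSP110), the nucleotide exchange factor of cytosolic HSP70, was at 20.8, 33.4 and 43.3 TPM in Paro/Neo hearts, against 42.1, 62.7 and 42.0 TPM in Vehicle hearts. Paro/Neo replicate 3 lay within the Vehicle range, and 2 libraries, Paro/Neo replicate 1 and Vehicle replicate 2, held the ends of the scale. Its log2 change was -0.61 ± 0.26 (limma adjusted p = 0.651), and it was -0.33 to -0.84 over the alternative settings, the smallest being without Paro/Neo replicate 1.

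For the other HSP70 members the groups overlapped. Hspa8, the constitutive HSP70, averaged 104 ± 16.5 TPM in Paro/Neo and 99.8 ± 3.44 TPM in Vehicle hearts. Hspa4, another HSP110 relative, averaged 137 ± 3.7 and 131 ± 6.2 TPM in Paro/Neo and Vehicle hearts, with the narrowest interval of the set, -0.14 to 0.27. The stress-inducible forms outside the list, Hspa1a and Hspa1b, are near-identical copies whose reads the counting could have split. Hspa1a stood at 0.0442, 0.587 and 0.221 TPM in Paro/Neo hearts, against 0.524, 0.626 and 0.291 TPM in Vehicle hearts, on 1 to 12 reads. Hspa1b stood at 0.396 to 0.904 TPM in Paro/Neo hearts, against 0.579 to 1.3 TPM in Vehicle hearts, and both genes were under the filter and untested.

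Hsp90ab1, the constitutive cytosolic HSP90, was at 889, 818 and 765 TPM in Paro/Neo hearts, against 637, 789 and 663 TPM in Vehicle hearts. Only Vehicle replicate 2 reached into the Paro/Neo range, and the log2 change was 0.25 ± 0.11 (limma adjusted p = 0.672). Hsp90aa1, the inducible form, averaged 90.6 ± 11.8 TPM in Paro/Neo and 86.1 ± 18.7 TPM in Vehicle hearts. Transcripts of Hsp90ab1 outnumbered those of Hsp90aa1 by 8.53, 9.65 and 9.23 times in Paro/Neo hearts, against 8.34, 7.33 and 8.94 times in Vehicle hearts. HSP90 and HSP70 genes have many processed pseudogenes, so reads shared with those copies make their absolute levels uncertain.

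Small heat shock proteins held 4 of the 8 highest levels in the set. Cryab (alpha B-crystallin), which binds desmin and titin, was the most abundant member, at 1301, 2086 and 1685 TPM in Paro/Neo hearts, against 1839, 1772 and 1908 TPM in Vehicle hearts. Paro/Neo replicates 1 and 2 were the lowest and the highest of the 6, and the log2 change was -0.15 ± 0.16. Cryab shares up to 252 bases of exon with Hspb2 on the opposite strand. Hspb7, a heart-enriched small HSP tied to sarcomere integrity, was at 1214, 1263 and 1341 TPM in Paro/Neo hearts, against 1247, 1174 and 988 TPM in Vehicle hearts (log2 change 0.17 ± 0.11, limma adjusted p = 0.748). Without Vehicle replicate 3, the lowest, its log2 change was 0.07.

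Hspb6 (HSP20) was at 553, 767 and 796 TPM in Paro/Neo hearts, against 752, 827 and 820.4 TPM in Vehicle hearts, again with Paro/Neo replicate 1 lowest and with groups that overlapped. Its log2 change was -0.20 ± 0.15, and -0.03 without that library. Hspb8, the partner of Bag3, was at 774, 685 and 682 TPM in Paro/Neo hearts, against 592, 749.5 and 689.8 TPM in Vehicle hearts, a log2 change of 0.08 ± 0.12. Hspb1 (HSP27 in human, HSP25 in mouse) was at 40.1, 33.8 and 44.5 TPM in Paro/Neo hearts, against 25.6, 41.4 and 26.4 TPM in Vehicle hearts. Vehicle replicate 2 stood apart from the other 2 Vehicle hearts for Hspb1, and the log2 change was 0.36 ± 0.19 (limma adjusted p = 0.708), or 0.58 without that heart. The 5 small heat shock genes together summed to 3882, 4835 and 4548 TPM in Paro/Neo hearts, against 4455, 4563 and 4433 TPM in Vehicle hearts.

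Hsf1 itself was at 11.3, 11.5 and 11.2 TPM in Paro/Neo hearts, against 10.2, 12.2 and 9.98 TPM in Vehicle hearts, a log2 change of 0.07 ± 0.12. Bag3, which links HSP70 to Hspb8 and to selective autophagy in the sarcomere, was at 71.3, 131 and 136 TPM in Paro/Neo hearts, against 97.4, 131 and 115 TPM in Vehicle hearts. Paro/Neo replicate 1 held the lowest Bag3 value, and the log2 change was -0.07 ± 0.24 with all libraries and 0.23 without it (limma adjusted p = 0.955 with all 6). The HSP40 cochaperone Dnajb1 was at 12.9, 10.9 and 11.5 TPM in Paro/Neo hearts, against 10.8, 13.9 and 12.8 TPM in Vehicle hearts. Dnaja1, another HSP40, averaged 16.4 ± 1.62 and 16.5 ± 2.18 TPM in Paro/Neo and Vehicle hearts. Its exons overlap those of Smu1 on the opposite strand by up to 608 bases.

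By mean level over the 6 libraries, the set ran from Cryab, 76th of the 12409 tested genes, to Ern1, 11358th. After Cryab (1765 TPM) and Hspb7 (1205 TPM) came Hspa5 at 791, Hsp90ab1 at 760.2, Hspb6 at 753, Hspb8 at 695, Hsp90b1 at 676 and Canx at 351 TPM. The levels from Hspa5 to Hsp90b1 lay within the spread between mice of their neighbours in that order. The TPM of Hspa5 exceeded that of Hspa8 by 8.01, 8.11 and 7.12 times in Paro/Neo hearts, against 7.54, 6.98 and 8.94 times in Vehicle hearts. Reads shared with pseudogene copies, as stated above for HSP70 genes, make the size of this ratio uncertain. Exons of Hspa8 also overlap Snord14c, Snord14d and Snord14e on the same strand, by up to 90 bases.

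Other genes of the same pathways, taken as lists, gave 0 calls after adjustment by limma in each of 9 lists. N-glycosylation genes were lower by value in 12 of 16, with a median log2 change of -0.12, and 3 were lower with an unadjusted p under 0.05. Over all tested genes 6666 of 12409 were lower by value, and 4.37% were lower with such a p. Dpagt1, which starts the lipid-linked glycan, averaged 15.4 ± 3.31 TPM in Paro/Neo and 22.7 ± 2.91 TPM in Vehicle hearts, and the transferase subunit Dad1 averaged 18.3 ± 2.53 and 23.7 ± 2.41 TPM in the same order. The median of that list was -0.26, -0.04 and -0.08 in Paro/Neo replicates 1 to 3, against 0.03, 0.03 and -0.06 in Vehicle replicates 1 to 3. Among 20 tested genes of the translocon and signal peptide processing 10 were higher and 10 lower, with a median of 0.004 and 0 at an unadjusted p under 0.05. The smallest p there belonged to Ssr2, at 63.6 ± 3.43 and 73.7 ± 2.93 TPM in Paro/Neo and Vehicle hearts, and to Sec61a1, at 19.9 ± 3.56 and 24.7 ± 2.77 TPM.

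ER folding and redox genes split into 14 higher and 11 lower (median 0.02). Of these 25 genes 8% had an unadjusted p under 0.05 by limma, against 7.61% of all tested genes. The 2 with an unadjusted p under 0.05 were Cnpy3, a chaperone of Toll-like receptors (11.6 to 13.1 TPM in Paro/Neo hearts, against 14.7 to 16.9 TPM in Vehicle hearts), and Serpinh1, the collagen chaperone HSP47. Serpinh1 was at 97.4, 134 and 110.1 TPM in Paro/Neo hearts, against 143, 198 and 136 TPM in Vehicle hearts, a log2 change of -0.47 ± 0.17 (limma adjusted p = 0.568), and of -0.30 without Vehicle replicate 2. Its client gene Col3a1 was at 80.6, 158 and 149 TPM in Paro/Neo hearts, against 219, 216 and 223 TPM in Vehicle hearts. Both genes were lower by value in every Paro/Neo heart than in every Vehicle heart, as were 8.22% of all tested genes. For Serpinh1 the closest pair across the groups was 134 against 136 TPM, and Col3a1 had a limma adjusted p of 0.434.

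Further ERAD genes split into 15 higher and 7 lower (median 0.07), led by Vimp (selenoprotein S), at 87.6 ± 7.06 TPM in Paro/Neo and 71.0 ± 9.1 TPM in Vehicle hearts, and by the ligase March6, at 80.8 ± 6.62 and 71.3 ± 1.37 TPM. Among other genes of the unfolded protein response 12 were higher and 9 lower, with a median of 0.01. Ppp1r15a (GADD34), which reverses the translational block set by PERK, was at 15.3, 13.4 and 16.2 TPM in Paro/Neo hearts, against 12.5, 12.4 and 9.24 TPM in Vehicle hearts. Nfe2l1, which induces proteasome genes, averaged 203 ± 20.0 TPM in Paro/Neo and 170.1 ± 5.52 TPM in Vehicle hearts. Vimp, Ppp1r15a and Nfe2l1 had unadjusted p of 0.0352, 0.0326 and 0.0372, and none passed after adjustment by limma.

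Other cytosolic heat shock genes split into 9 higher and 12 lower (median -0.03), and 1 had an unadjusted p under 0.05: the distant HSP70 relative Hspa12a, at 7.16 ± 1.31 TPM in Paro/Neo and 13.5 ± 5.48 TPM in Vehicle hearts, followed by its paralog Hspa12b at 12.6 ± 2.71 and 15.8 ± 1.82 TPM. Cochaperones of HSP70 and HSP90 split into 14 higher and 10 lower (median 0.02). Their smallest p belonged to Cdc37l1 (146 ± 12.0 TPM in Paro/Neo and 121 ± 16.2 TPM in Vehicle hearts) and Ptges3, the HSP90 cochaperone p23 (46.9 ± 6.11 and 55.4 ± 5.3 TPM). The CCT and prefoldin list split into 10 higher and 4 lower (median 0.03), led by Cct3 (121 ± 23.7 and 144 ± 10.1 TPM) and Pdcl3 (130.5 ± 15.2 and 114 ± 10.2 TPM). Mitochondrial chaperones and proteases split into 4 higher and 10 lower (median -0.04), led by Clpb (25.5 ± 2.72 and 29.1 ± 1.98 TPM) and Clpp (66.7 ± 14.1 and 77.2 ± 5.61 TPM). In these 3 lists 0 genes had an unadjusted p under 0.05 by limma, where 7.61% of all tested genes had such a p.

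**Figure D3:**
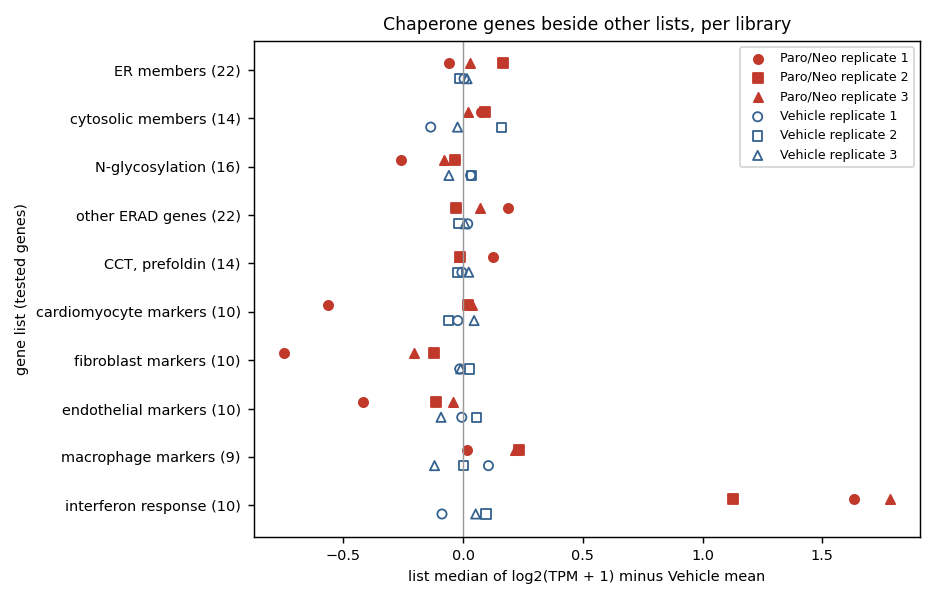
Median of log2(TPM + 1) minus the Vehicle mean over the tested genes of each list, per library (filled red, Paro/Neo; open blue, Vehicle; circle, square and triangle for replicates 1, 2 and 3; number of genes in brackets). ER members lie at -0.06, 0.17 and 0.03 in Paro/Neo replicates 1 to 3, 1 of them below and 2 above the Vehicle hearts (-0.01 to 0.02), while the 10 interferon response genes lie at 1.13 to 1.78.

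Markers of other cells and states were also counted by the direction of their change. The counts stand beside 5743 higher and 6666 lower of all 12409 tested genes. At an unadjusted p under 0.05, 3.24% of all tested genes were higher and 4.37% lower. Interferon response genes were higher in 10 of 10, with 6 past the threshold by limma, and summed to 253, 184 and 284 TPM in Paro/Neo hearts, against 69.5, 79.9 and 77.0 TPM in Vehicle hearts. Fibroblast markers were lower by value in 10 of 10, with 0 past the threshold and 4 at an unadjusted p under 0.05, and their list median was -0.75, -0.12 and -0.21 in Paro/Neo replicates 1 to 3 and lay between -0.01 and 0.03 in the Vehicle hearts. Endothelial markers were lower in 8 of 10 and smooth muscle and pericyte markers in 8 of 10, macrophage markers higher in 8 of 9, cardiomyocyte markers lower in 6 of 10 and red cell markers lower in 5 of 5. At an unadjusted p under 0.05 by limma, 2 red cell markers were lower and 1 macrophage marker was higher. So were 1 endothelial, 1 smooth muscle and pericyte and 1 cardiomyocyte marker, each of these lower. Summed TPM of the endothelial, smooth muscle and pericyte, macrophage, cardiomyocyte and red cell lists overlapped between the groups. Fibroblast sums did not overlap, at 2770, 3514 and 3486 TPM in Paro/Neo hearts, against 3608, 3749 and 3652 TPM in Vehicle hearts. Endothelial sums averaged 6855 in Paro/Neo and 6850 in Vehicle hearts, and cardiomyocyte sums 136400 and 132200. In Paro/Neo replicates 1 to 3 the smooth muscle and pericyte median was -0.59, -0.20 and 0.09, and the red cell median 0.18, -0.74 and -0.22. Of the neutrophil markers 2 were tested, 2 were higher by value and 1 had an unadjusted p under 0.05 by limma. The neutrophil list summed to 23.5 to 25.5 TPM in Paro/Neo and 7.52 to 18.2 TPM in Vehicle hearts. The cardiomyocyte median was -0.57 in Paro/Neo replicate 1 alone, and -0.06 to 0.05 in the other 5 libraries. Every marker in these lists that the table held was above 0 in at least 1 library. The part of these cells and states in the chaperone values was not tested.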

How the data were processed

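Ventricular RNA of 6 mice was measured as stranded mRNA libraries read at 76 bp, per the labels' protocols. The authors deposited 1 table of TPM values, which are corrected for gene length and sum to 1000000 in each library. The build mm10 and the tools STAR 2.5.3a, featureCounts, Subread, edgeR and FastQC 0.11.5 are named, with no role, per the submitters' processing notes. Annotation, strand setting and any feature filter: not given in the sources used here. Sample titles gave the groups and replicate numbers, and the descriptions and table columns number Paro/Neo replicates 1, 2 and 3 as 2, 3 and 4. The labels call the libraries biological replicates and do not say whether the mice were littermates.

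TPM keeps no depth, but for 1 feature the ratio of 2 libraries equals a ratio of read numbers up to 1 factor per pair of libraries. That factor, from values below 1 TPM, gave whole reads within 0.001 for 17574 of 17574 features above 0, a check with force only for the 14330 above 0 in all 6. These reads are lower estimates and were used for depth only.

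Genes reaching 1 TPM in 3 or more libraries (12409) were fitted as log2(TPM + 1), a scale that understates changes of low genes, with limma 3.58.1 in R 4.3.3 (intensity trend, 4.03 prior degrees of freedom), and adjusted by Benjamini-Hochberg over all of them. The fit was tested on simulated data. With 3 mice per group no exact permutation test can go below p = 0.10, so none is given. Gene coordinates and GC content are from GENCODE M21 on GRCm38 (mm10), matched by symbol or synonym.

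The 36 members, the lists and the tests were chosen with earlier results of these data known. Values per library are given for the 10 members of smallest p, the 8 most abundant and 10 standard readouts (Hspa5, Hsp90b1, Xbp1, Dnajb9, Atf6, Ern1, Eif2ak3, Hsf1, Bag3, Dnajb1), and the others by mean and SD or by range. Each pathway list gives its 2 genes of smallest p, mostly as group means. Hspa1a, Hspa1b and Col3a1 were named outside that rule.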

Additional observations from a re-analysis of the deposited data

How the results depend on the processing

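No member passed the threshold under any of the 15 alternatives, the lowest adjusted p being 0.219. Of 36 members, 20 kept the sign of their log2 change throughout. With array weights, which gave Paro/Neo replicate 1 a weight of 0.26, the sign turned for Hyou1 (0.0429), Calr (0.14), Pdia3 (0.0431), Pdia4 (0.0289), Cryab (0.0357) and Bag3 (0.19), and with median centring for Dnaja1 (0.0151). Leaving out 1 library at a time turned the sign of 16, with ranges of -0.0792 to 0.151 for Hspa5, -0.171 to 0.021 for Hyou1, -0.00101 to 0.0967 for Dnajb11, -0.449 to 0.0137 for Sdf2l1, -0.213 to 0.14 for Calr, -0.0191 to 0.127 for Canx, -0.15 to 0.0361 for Pdia3, -0.293 to 0.0292 for Pdia4, -0.0901 to 0.0607 for Atf6, -0.153 to 0.0406 for Syvn1, -0.0369 to 0.182 for Hspa8, -0.0172 to 0.256 for Hsp90aa1, -0.0134 to 0.157 for Hspb8, -0.312 to 0.028 for Cryab, -0.0942 to 0.0859 for Dnaja1 and -0.227 to 0.233 for Bag3. The cause was not tested. The median log2 change of the set was 0.01 to 0.07 with 1 library left out, that of the ER members 0.01 to 0.09 and that of the cytosolic members -0.0008 to 0.09. The 5 members at an unadjusted p under 0.05 became 3 without the intensity trend, where 7.8% of all tested genes had such a p. With 1 library left out they were 1 to 6, where the share of all tested genes was 5.67% to 9.2%.

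Over the whole table the 17 called genes became 6 without a filter, 9 without the trend, 26 with array weights and 5 to 27 with 1 library left out. With the replicate number as a block the count was 27, and 5 with the block and a GC correction together. Numbers are those of the titles, where the descriptions and table columns have 2 to 4 for Paro/Neo. No label says whether these numbers pair the mice. Deviations of same-numbered libraries correlated at -0.0528, -0.0356 and -0.122, which with so few mice cannot decide it. With the block, 4 members had an unadjusted p under 0.05, as did 6.74% of all tested genes, and 0 members passed. Depth limits Ern1 and Sdf2l1 most, at 25 to 98 and 28 to 81 reads.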

Other observations

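Vehicle replicate 2 held the highest of the 6 values for 6 of the 14 cytosolic members, namely Hsph1, Hsp90aa1, Hspb6, Dnajb1, Dnaja1 and Hsf1, a pattern seen after the values were known. Over all 36 members, Vehicle replicate 2 and Paro/Neo replicate 2 were each highest for 10, and the share over all tested genes was not counted. Against the other 2 Vehicle hearts, Vehicle replicate 2 had 62.7 TPM of Hsph1 (42.1 and 42.0), 108 TPM of Hsp90aa1 (76.4 and 74.2) and 41.4 TPM of Hspb1 (25.6 and 26.4). Its cytosolic median stood 0.16 above the Vehicle mean, against -0.14 and -0.02 in Vehicle replicates 1 and 3, while its ER median was -0.01. Without it, the log2 change of Hspb1 was 0.58 and that of Hsph1 was -0.42.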
